A study of Mus musculus with 16 samples.

Results

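The nuclear genes for the subunits of oxidative phosphorylation were examined in the heads of mouse embryos. They were chosen by gene symbol and made up 80 of the 24421 genes in the count tables. By symbol, 36 belong to complex I, 4 to complex II, 8 to complex III, 15 to complex IV and 17 to ATP synthase. Atp5s and Atp5sl fall in the last class by symbol, but RefSeq now names them Dmac2l and Dmac2.

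RNA was sequenced from F3 embryos at embryonic day 8.5, in tissue reaching from the first branchial arch to slightly above the otic vesicle. The 4 groups held 4 libraries each. They were embryos homozygous for a null allele of Ift88 (mutants) and wild type (WT) embryos on an enriched diet of 10 ppm folic acid, and mutants and WT embryos on a moderate diet of 2 ppm, with each diet given for 3 generations. Ift88 encodes a subunit of the transport particle that builds cilia, and the series asks whether folic acid supplementation harms cilia. All groups received folic acid, and the labels give neither strain nor litter, so the tests compare libraries that may come from related embryos, and each p-value reflects only their spread.

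Oxidative phosphorylation takes place on the inner mitochondrial membrane. Complex I takes electrons from NADH and complex II from succinate, complex III passes them to cytochrome c, and complex IV passes them to oxygen. Complexes I, III and IV pump protons, and ATP synthase uses the returning protons to make ATP. Most subunits are encoded in the nucleus, and several core subunits in mitochondrial DNA. Early mouse embryos are known to draw much of their ATP from glycolysis before the circulation is established.

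Libraries held 19249433 to 44267434 counts on genes, of which the 80 genes took 0.793 to 1.12%. No mitochondrially encoded gene was among the rows, and these are not analysed here. Ift88 had 2.86 to 8.61 CPM (counts scaled to a common library size of 1e6) in enriched diet mutants and 17.9 to 20.8 CPM in enriched diet WT. It had 2.01 to 6.44 CPM in moderate diet mutants and 9.30 to 20.9 CPM in moderate diet WT, where replicate 2 was lowest. By label, males were replicates 2 and 4 of enriched diet mutants and replicates 1, 3 and 4 of enriched diet WT. On the moderate diet the labelled males were mutant replicate 1 and WT replicate 3, and all other libraries were labelled female. In 3 libraries, moderate diet mutant replicates 1 and 2 and moderate diet WT replicate 2, Xist and Y-linked counts went against the labelled sex. Of the head markers, Sox2, a neural progenitor factor, was at 216 to 299.8 CPM and Otx2, a forebrain and midbrain factor, at 126 to 191 CPM over the 16 libraries. The 9 trunk and tailbud markers listed had sums of 15.3 to 31.4 CPM. Only 3 of them (Tbx6, Wnt3a and T) had enough counts for a test, and Cdx2 and Hoxb9 were hardly detected. How much tissue from outside the head each library held was not tested.

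The subunit genes differed widely in level. Per kilobase of transcript and averaged over the 16 libraries, the highest was Atp5b, the catalytic beta subunit of ATP synthase, at 934.5 CPM per kilobase. The highest in the other complexes were Ndufa4 at 285 CPM per kilobase, Cox8a of complex IV at 272, Uqcrh, the hinge protein of complex III, at 267, and Sdhd, a membrane anchor of complex II, at 138. Ndufa4 was named as a complex I subunit and is now assigned to complex IV. The lowest gene of each complex among those with enough counts for a test was Ndufb4 of complex I at 1.065, Sdhc of complex II at 38.75, Uqcr11 of complex III at 69.9, Cox7a1 of complex IV at 2.06 and Atp5l of ATP synthase at 1.279 CPM per kilobase.

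Many of the lowest levels stood beside sequence shared with other genes. In 12 subunit genes at least 25% of the 50-base stretches of the transcript also occurred in other annotated genes, and their median level was 9.97 CPM per kilobase, against 95.2 in the other 68. Ndufs5 was at 0 counts in all libraries with 41.2% of its stretches shared. The shared part was 37.0% in Ndufb4, 68.5% in Atp5l, 53.0% in Cox7c and 100% in Atp5g2, so their levels are uncertain, since reads with several positions may not have been counted. Tissue isoforms without shared stretches were also at or near 0. Cox6a2, the heart and muscle isoform of subunit 6A, had 16 counts over the 16 libraries, Cox8b of heart and muscle had 3, Cox7b2 of testis had 2 and Cox8c of testis had 0. These and Ndufs5 stayed under 10 counts in every library and were not tested, which left 75 genes.

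The promoters of 5 genes are printed because the comparisons turn on them. Ndufv3 was higher in mutants on both diets, and Ndufa11 and Atp5k were among the steadiest falls. Cox6b2 and Cox6b1 are isoforms of 1 complex IV subunit called in opposite directions on the enriched diet, but the Cox6b1 call held in only 8 of 28 other fits. Each window is from RefSeq (GRCm38.p6), runs 5′ to 3′ on the strand of the gene, and spans 250 bases before the start site and 50 bases after it. Capitals mark matches on either strand to 4 motifs, that of the factor NRF1 (GCGCA and GCGC with any single base between them), CCGGAAG of ETS factors, AAGATGG of YY1 and ACGTG, the core of sites of hypoxia-inducible factors.
Ndufv3, chr17:31519865-31520164, plus strand: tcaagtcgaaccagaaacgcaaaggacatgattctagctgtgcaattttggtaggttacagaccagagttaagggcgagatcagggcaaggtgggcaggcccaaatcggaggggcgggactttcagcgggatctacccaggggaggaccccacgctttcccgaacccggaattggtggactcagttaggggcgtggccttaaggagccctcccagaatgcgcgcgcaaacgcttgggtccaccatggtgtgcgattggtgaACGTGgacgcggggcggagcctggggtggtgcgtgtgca
Cox6b2, chr7:4753045-4753344, minus strand: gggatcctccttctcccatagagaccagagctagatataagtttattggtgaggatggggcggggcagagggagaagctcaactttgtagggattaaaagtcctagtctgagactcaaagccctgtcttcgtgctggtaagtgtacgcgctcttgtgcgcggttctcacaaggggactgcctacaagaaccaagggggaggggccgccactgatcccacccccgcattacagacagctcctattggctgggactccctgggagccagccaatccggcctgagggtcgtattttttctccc
Cox6b1, chr7:30626065-30626364, minus strand: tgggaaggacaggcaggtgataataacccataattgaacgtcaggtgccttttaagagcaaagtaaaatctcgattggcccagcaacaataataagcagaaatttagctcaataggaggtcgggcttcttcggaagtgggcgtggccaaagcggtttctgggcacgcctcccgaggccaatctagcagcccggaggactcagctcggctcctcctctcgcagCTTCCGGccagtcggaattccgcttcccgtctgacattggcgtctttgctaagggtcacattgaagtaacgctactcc
Ndufa11, chr17:56717512-56717811, plus strand: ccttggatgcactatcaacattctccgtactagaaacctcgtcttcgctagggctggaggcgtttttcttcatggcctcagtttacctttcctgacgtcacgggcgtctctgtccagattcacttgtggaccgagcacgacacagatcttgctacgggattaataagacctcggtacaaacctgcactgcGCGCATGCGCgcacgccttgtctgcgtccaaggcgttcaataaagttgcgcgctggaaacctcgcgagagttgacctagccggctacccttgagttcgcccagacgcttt
Atp5k, chr5:108434350-108434649, minus strand: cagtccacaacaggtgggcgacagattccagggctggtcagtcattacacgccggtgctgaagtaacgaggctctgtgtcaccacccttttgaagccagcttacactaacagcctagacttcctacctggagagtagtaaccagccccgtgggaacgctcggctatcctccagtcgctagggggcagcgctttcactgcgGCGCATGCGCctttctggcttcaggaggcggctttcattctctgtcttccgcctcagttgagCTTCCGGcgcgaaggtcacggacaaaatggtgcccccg

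Windows were found for 68 of the 80 genes. The NRF1 motif occurred in 23.5% of them, against 4.6% of all 32851 RefSeq windows of this length. The ETS motif occurred in 22.1% against 8.86% of all windows, the YY1 motif in 16.2% against 6.34%, and the ACGTG core in 27.9% against 19.6%. The windows of all genes were not limited to genes with enough counts for a test here. Shares among other genes of similar level were not counted, so these gaps cannot be read as particular to subunit genes. In the windows printed, an NRF1 match began 60 bases before the start site in Ndufa11 and 50 bases before it in Atp5k, and an ETS match was present in Cox6b1 and Atp5k. Ndufv3 held the ACGTG core alone, and Cox6b2 held none of the 4 motifs. A match describes letters in the window and is not a measured binding site.

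On the enriched diet, 19 of the 75 subunit genes fell and 2 rose in mutants. The falls reached all 5 complexes and were small, at most 0.62 on the log2 scale. The genes that fell included Atp5g1, Ndufa11, Ndufa1, Uqcr11 and Sdhd, and the genes that rose were Ndufv3 and Cox6b2. Among all 14514 genes tested, 16.8% fell and 14.4% rose in this comparison, and 31.2% passed in either direction (quasi-likelihood F test of edgeR, p adjusted by Benjamini and Hochberg under 0.05). The median log2 fold change was -0.17 over the 75 subunit genes and -0.01 over all genes, and 64 of the 75 were below 0, against 50.6% of all genes. All mutants lay below all WT libraries in 7 subunit genes, against 12.5% of all genes, and above them in 2, against 11.2%.

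**Figure D1:**
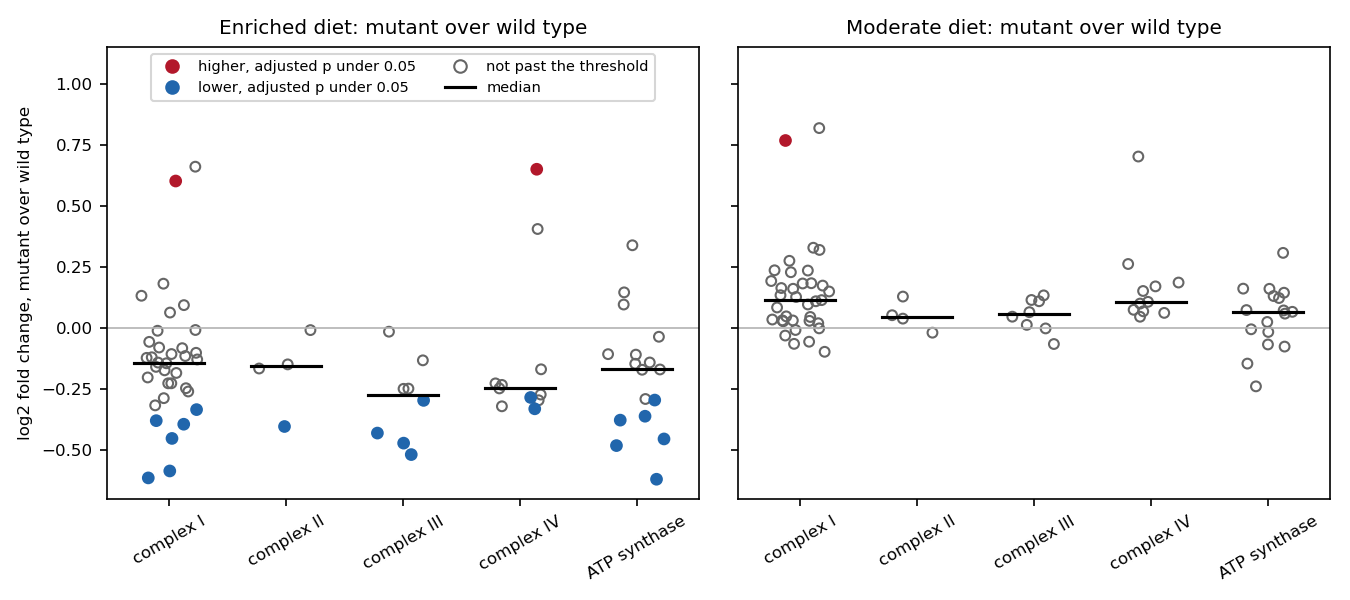
Log2 fold change of each of the 75 subunit genes, mutant over WT, by complex, on the enriched diet (left) and the moderate diet (right), with filled points for genes past an adjusted p of 0.05 and lines for the medians. On the enriched diet 19 points are filled blue and 2 red, and on the moderate diet 1 is filled red.

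In complex I, 6 of 35 genes fell, 1 rose and 28 did not pass, with a median log2 fold change of -0.14. Ndufv3, an accessory subunit of the module that binds NADH, lies on chromosome 17 from 31520115 to 31531331 (mm10). It had 92.1, 93.1, 80.8 and 77.8 CPM in enriched diet mutants, against 70.5, 48.8, 55.0 and 56.7 CPM in enriched diet WT. All 4 mutants lay above all 4 WT libraries, and the log2 fold change was 0.60 ± 0.12 (SE, edgeR quasi-likelihood F test, Benjamini-Hochberg adjusted p = 0.0021). Ndufa11, an accessory subunit of the membrane arm, lies on chromosome 17 from 56717767 to 56722141. It had 43.0, 32.8, 39.9 and 32.0 CPM in enriched diet mutants, against 61.9, 46.7, 63.9 and 50.8 CPM in enriched diet WT, without overlap. Its log2 fold change was -0.61 ± 0.14 (edgeR adjusted p = 0.00464).

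Ndufa1, a small X-linked subunit of the membrane arm, had 29.1, 21.4, 31.6 and 19.6 CPM in enriched diet mutants, against 39.7, 34.4, 38.5 and 33.0 CPM in enriched diet WT. Its groups did not overlap either, with a log2 fold change of -0.59 ± 0.15 (edgeR adjusted p = 0.00715). Its lowest mutant libraries, replicates 2 and 4, were labelled male and the other enriched diet mutants female. In enriched diet WT the labelled female, replicate 2, lay within the range of the males. Ndufa5, of the peripheral arm, averaged 29.2 ± 5.99 CPM in enriched diet mutants and 38.8 ± 4.17 CPM in enriched diet WT (SD, n = 4 each), and its log2 fold change was -0.45 ± 0.14 (edgeR adjusted p = 0.0195). Ndufb7, of the membrane arm, fell by 0.39 ± 0.12 on the log2 scale (edgeR adjusted p = 0.0246). In both genes mutant and WT libraries overlapped. Ndufb8 and Ndufs6 also fell, by 0.38 and 0.33. The highest log2 fold change in complex I, 0.66 ± 0.39, belonged to Ndufa12 and did not pass (edgeR adjusted p = 0.212). Its libraries ran from 4.34 to 17.6 CPM in enriched diet mutants and from 3.66 to 8.04 CPM in enriched diet WT, and 26.2% of its stretches are shared with other genes.

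Complex II has 4 genes, of which Sdhd fell and 3 did not pass. Sdhd, on chromosome 9 from 50596357 to 50603812, encodes a membrane anchor of succinate dehydrogenase. It had 167, 134, 164 and 113 CPM in enriched diet mutants, against 202, 172, 201 and 160.2 CPM in enriched diet WT. The groups overlapped, and the log2 fold change was -0.40 ± 0.11 (edgeR quasi-likelihood F test, Benjamini-Hochberg adjusted p = 0.014). The 3 others ranged from -0.17 to -0.01.

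In complex III, 4 of 8 genes fell, none rose, and the median log2 fold change was -0.27. The 4 that fell are small accessory subunits. Uqcr11, on chromosome 10 from 80402997 to 80406830, had 32.6, 24.6, 28.0 and 19.0 CPM in enriched diet mutants, against 38.4, 32.1, 42.0 and 32.1 CPM in enriched diet WT. Only mutant replicate 1 lay within the WT range, and the log2 fold change was -0.52 ± 0.14 (edgeR quasi-likelihood F test, Benjamini-Hochberg adjusted p = 0.0113). Uqcrq averaged 53.3 ± 7.29 CPM in enriched diet mutants and 73.1 ± 12.2 CPM in enriched diet WT (SD, n = 4 each), with no overlap and a log2 fold change of -0.47 ± 0.14 (edgeR adjusted p = 0.0204). Uqcr10 did not overlap either, at -0.43 ± 0.14 (edgeR adjusted p = 0.0252). Uqcrb fell by 0.30 ± 0.10 (edgeR adjusted p = 0.0386), with 43.2% of its stretches shared with other genes. Uqcrc2, a core subunit, was at -0.02 ± 0.09 and did not pass.

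In complex IV, 2 of 11 genes fell, 1 rose and 8 did not pass, with a median log2 fold change of -0.25. The isoforms of subunit 6B differed in direction. Cox6b2, known as the testis isoform, lies on chromosome 7 from 4751792 to 4753094 and had 5.87, 5.97, 6.42 and 8.10 CPM in enriched diet mutants, against 4.27, 3.18, 4.94 and 4.70 CPM in enriched diet WT. All mutants lay above all WT libraries, at a log2 fold change of 0.65 ± 0.16 (edgeR quasi-likelihood F test, Benjamini-Hochberg adjusted p = 0.00605). Cox6b1, the form found in most tissues, lies on the same chromosome from 30616861 to 30626151 and had 169, 145, 157 and 118 CPM in enriched diet mutants, against 196, 162, 186 and 159 CPM in enriched diet WT. These groups overlapped, at a log2 fold change of -0.28 ± 0.10 (edgeR adjusted p = 0.0388). The call of Cox6b1 held in 8 of 28 other fits and that of Cox6b2 in all 28. Cox5a, which faces the matrix, fell by 0.33 ± 0.12 (edgeR adjusted p = 0.0469), the weakest call among the 21, and 41.7% of its exon bases overlap another gene.

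In ATP synthase, 6 of 17 genes fell, none rose and 11 did not pass, with a median log2 fold change of -0.17. Atp5k encodes subunit e, on chromosome 5 from 108433244 to 108434448. It had 54.4, 47.7, 52.8 and 42.4 CPM in enriched diet mutants, against 75.1, 59.7, 77.3 and 58.7 CPM in enriched diet WT, with no overlap and a log2 fold change of -0.48 ± 0.12 (edgeR quasi-likelihood F test, Benjamini-Hochberg adjusted p = 0.00711). Atp5j2, subunit f, averaged 90.6 ± 13.5 CPM in enriched diet mutants and 121 ± 13.7 CPM in enriched diet WT (SD, n = 4 each). Its groups did not overlap, at -0.45 ± 0.11 (edgeR adjusted p = 0.00762).

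The proton-carrying ring of ATP synthase is built from subunit c, whose mature protein is encoded by Atp5g1, Atp5g2 and Atp5g3 alike. Atp5g1 had 25.4, 19.8, 23.7 and 15.99 CPM in enriched diet mutants, against 37.3, 28.4, 36.3 and 24.5 CPM in enriched diet WT. Mutant replicate 1 lay within the WT range, and the log2 fold change was -0.62 ± 0.15 (edgeR quasi-likelihood F test, Benjamini-Hochberg adjusted p = 0.00698). Atp5g3, at 250.3 to 355 CPM in enriched diet mutants and 342 to 434 CPM in enriched diet WT, fell by 0.38 ± 0.12 (edgeR adjusted p = 0.0214). Atp5h, subunit d of the stalk, fell by 0.36 ± 0.10 without overlap (edgeR adjusted p = 0.0126), and Atp5j, the coupling factor of the stalk, fell by 0.30. Shared stretches made up 66.0% of Atp5g1 and 50.5% of Atp5h. Atp5g2, whose stretches are all shared, averaged 1.84 ± 0.511 CPM in enriched diet mutants and 1.75 ± 0.438 CPM in enriched diet WT (SD, n = 4 each), at 0.15 ± 0.22 (edgeR adjusted p = 0.637). Atp5b, the catalytic subunit, was at -0.15 ± 0.10 and did not pass.

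**Figure D2:**
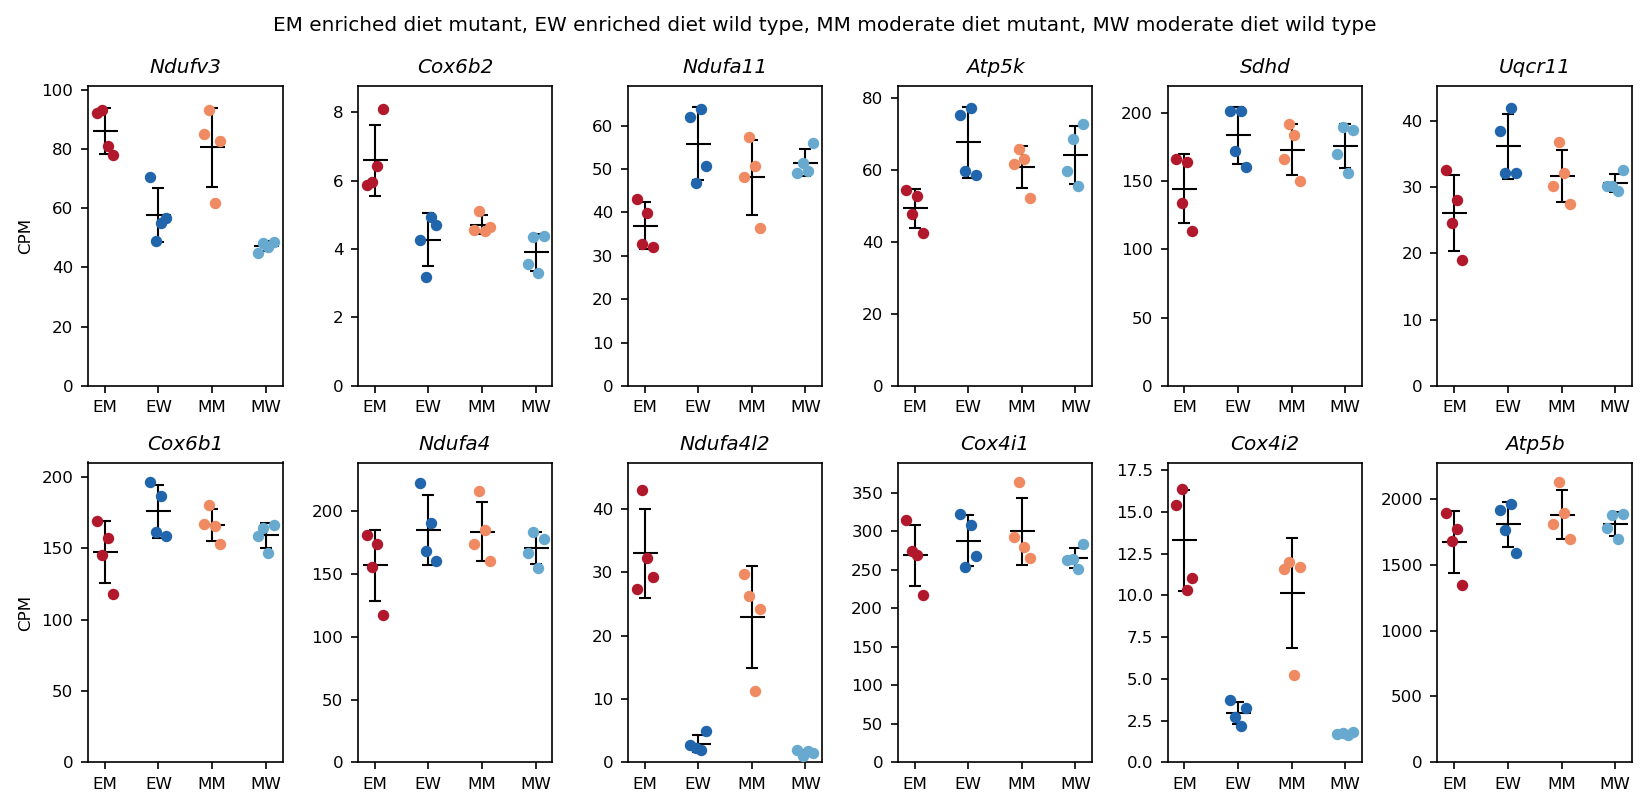
CPM per library for 12 genes, 9 of them subunit genes chosen by symbol and 3 (Ndufa4l2, Cox4i1, Cox4i2) related subunits, in enriched diet mutants, enriched diet WT, moderate diet mutants and moderate diet WT, with the mean and SD of each group of 4. Ndufv3 lies higher in mutants on both diets, while Ndufa11 and Atp5k lie lower in mutants on the enriched diet.

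Counts were also summed over each complex. Complex I summed to 2358 ± 304 CPM in enriched diet mutants and 2554 ± 274 CPM in enriched diet WT (SD, n = 4 each). Complex IV summed to 851 ± 122 CPM in enriched diet mutants and 1004 ± 123 CPM in enriched diet WT. ATP synthase summed to 4400.2 ± 593 CPM in enriched diet mutants and 4752 ± 455 CPM in enriched diet WT. In each complex the 2 groups overlapped, and enriched diet mutant replicate 4 was lowest. The sums are dominated by a few abundant genes such as Atp5b.

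**Figure D3:**
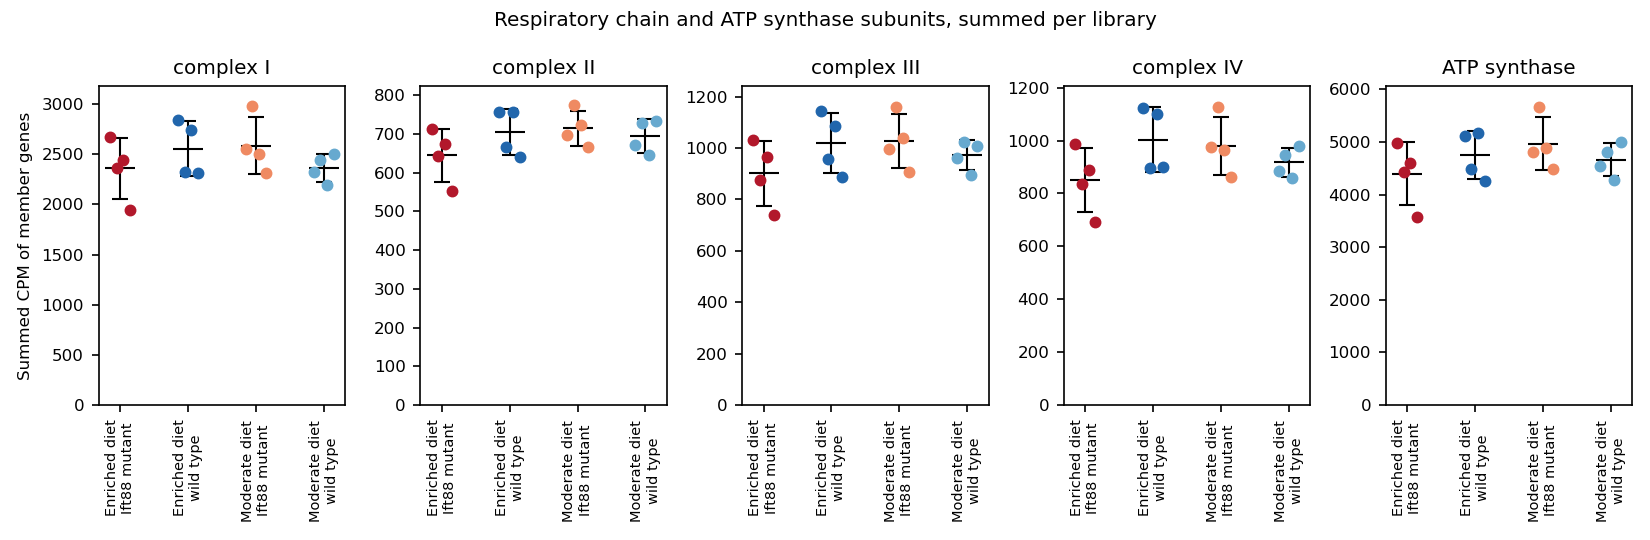
Summed CPM of the subunit genes of each complex per library, for enriched diet mutants, enriched diet WT, moderate diet mutants and moderate diet WT, with the mean and SD of each group of 4. In each complex the enriched diet mutants have the lowest mean of the 4 groups and overlap enriched diet WT.

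Transcript length and single libraries moved with these falls. Subunit transcripts are short, with a median of 758 bases against 2933 in the other genes tested. Among transcripts of up to 750 bases, 15 of 37 subunit genes fell (40.5%), against 21.1% of 322 other protein-coding genes, with median log2 fold changes of -0.29 and -0.14. Above that and up to 1500 bases, 4 of 23 subunit genes fell (17.4%), against 26.6% of 1762 others, with medians of -0.13 and -0.14. Between 1500 and 3000 bases, 0 of 14 subunit genes fell, against 20.03% of 4988 others. With the length trend of each library removed, a setting chosen after the data were seen, 14 subunit genes fell and 6 rose, their median was -0.08, while 17.1% of all genes fell and 16.4% rose.

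Among libraries, the median deviation of the subunit genes from their mean over all libraries was lowest in enriched diet mutant replicate 4, at -0.38 on the log2 scale, where other short genes stood at -0.21. It was highest in moderate diet mutant replicate 2 (0.26), enriched diet WT replicate 1 (0.24) and enriched diet WT replicate 3 (0.17), where other short genes stood at 0.17, 0.21 and 0.15. Enriched diet mutant replicate 4 also had the highest share of reads on no annotated feature, at 17.0%. Enriched diet WT replicate 4, with a subunit deviation of -0.07, had 16.8%. Alignments of reads with several positions, per 100 assigned counts, were fewest in enriched diet mutant replicate 4 (77.2). They were most frequent in moderate diet mutant replicate 2 (94.9). Enriched diet WT replicates 1 and 3 had 91.0 and 87.0, but enriched diet mutant replicate 2, with a subunit deviation of -0.11, had 87.4. In enriched diet mutant replicate 4, yolk sac and visceral endoderm markers summed to 140.6 CPM, against 8.87 to 11.51 CPM in the other enriched diet mutants and 14.9 to 34.8 CPM in enriched diet WT. The count of 19 falls became 6 without enriched diet mutant replicate 4, where 13.1% of all genes fell. It became 6 without enriched diet WT replicate 1 (10.98% of all genes), 6 without enriched diet WT replicate 3 (9.7%) and 8 without enriched diet mutant replicate 2 (10.1%), against 16.8% with every library. The part of length, of read placement, of these markers and of single libraries in the falls was not tested beyond these values. Atp5g1, Atp5j2, Atp5k, Ndufa1 and Ndufa11 fell, and Ndufv3 and Cox6b2 rose, in all 28 other fits.

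Among promoter windows of subunit genes that fell, 41.2% of 17 held the NRF1 motif, against 17.4% of 46 windows of those that did not pass. The same shares were 35.3% against 19.6% for the ETS motif, 17.6% against 17.4% for the YY1 motif and 29.4% against 26.1% for the ACGTG core, all given as a description with no test.

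**Figure D4:**
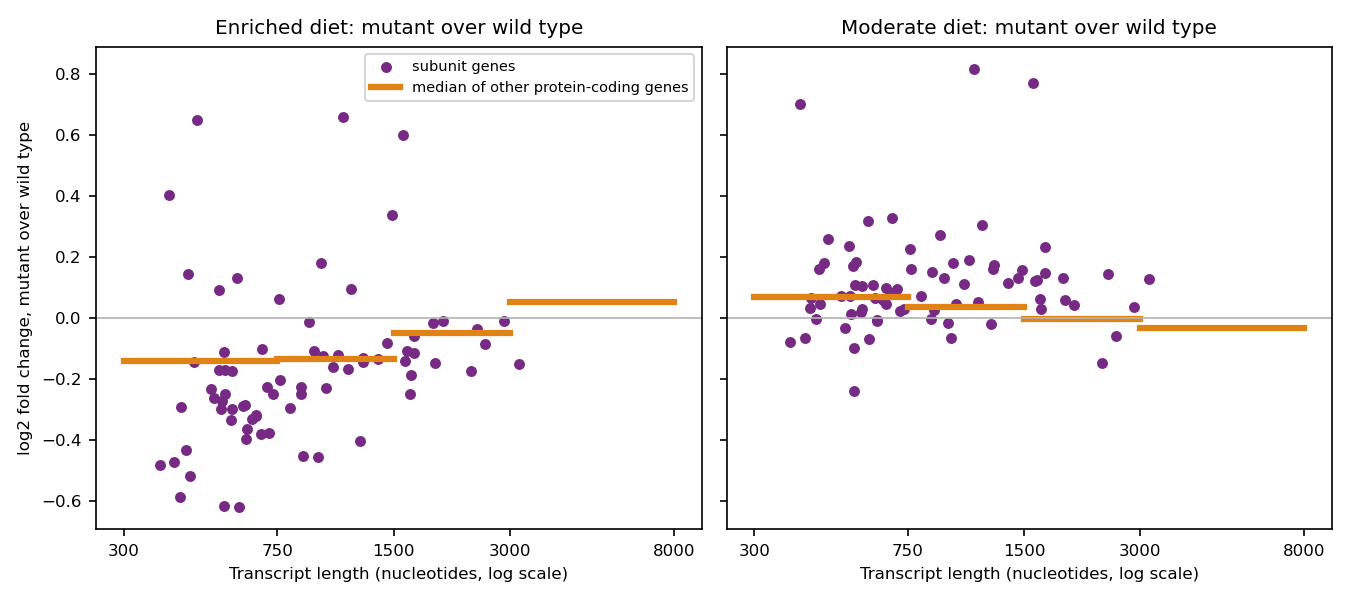
Log2 fold change of each subunit gene, mutant over WT, against transcript length in bases on a log axis, on the enriched and the moderate diet, with the medians of other protein-coding genes by length class. On the enriched diet the other genes of up to 750 bases have a median of -0.14 and those over 3000 bases a median of 0.05.

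**Figure D5:**
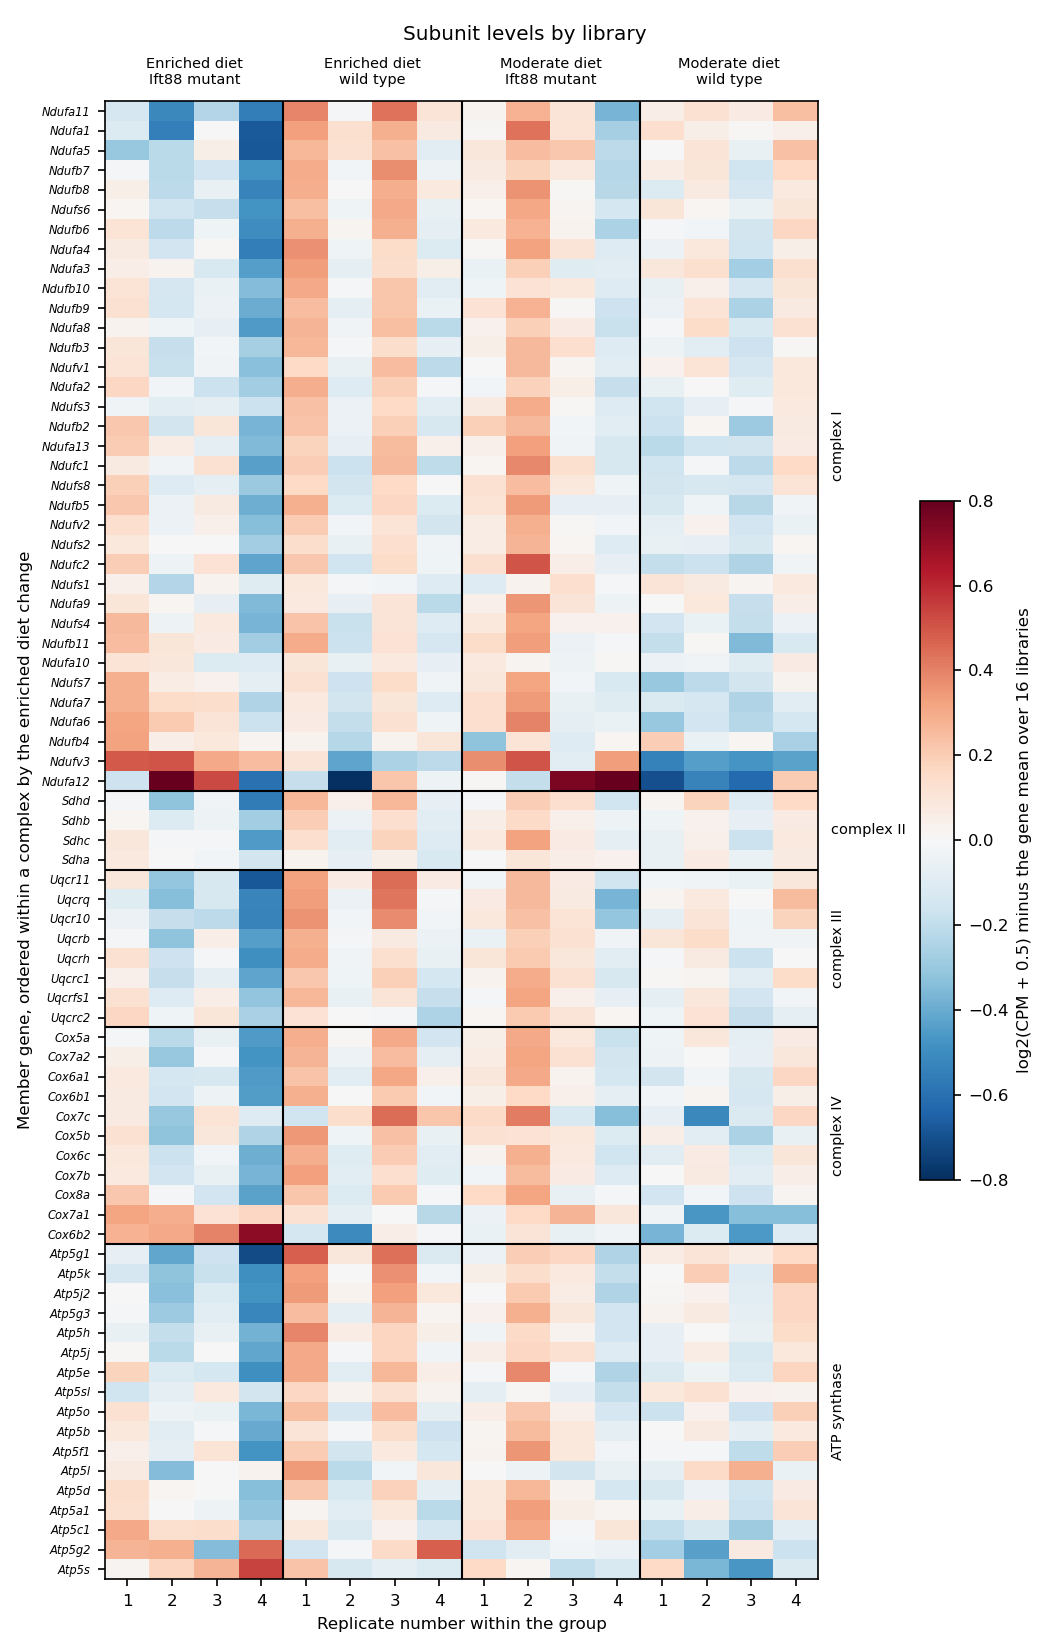
Log2(CPM + 0.5) of the 75 subunit genes in each of the 16 libraries, minus the mean of each gene, with genes ordered by complex. Enriched diet mutant replicate 4 is low in most rows, and moderate diet mutant replicate 2 and enriched diet WT replicates 1 and 3 are high.

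On the moderate diet, 1 of the 75 subunit genes rose in mutants and 0 fell. The gene was Ndufv3, with 85.0, 93.1, 61.8 and 82.6 CPM in moderate diet mutants, against 44.9, 48.2, 47.0 and 48.5 CPM in moderate diet WT. All mutants lay above all WT libraries, with replicate 3 nearest, and the log2 fold change was 0.77 ± 0.12 (SE, edgeR quasi-likelihood F test, Benjamini-Hochberg adjusted p = 0.000876). Among all genes, 4.79% rose and 2.83% fell, and 7.62% passed in either direction. The median log2 fold change was 0.08 over the subunit genes (-0.02 without the 3 libraries of contradicted sex label), with 15 of 75 below 0, against 51.9% of all genes. All mutants lay above all WT libraries in 5 subunit genes, against 8.5% of all genes, and below them in 1, against 7.06%. At an unadjusted p under 0.05, 7 subunit genes were higher and 0 lower, against 23.4% of all genes in either direction. Without the 3 libraries of contradicted sex label, Ndufv3 did not pass (0.65, edgeR adjusted p = 0.0978), and 0.45% of all genes rose.

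No other complex had a call on the moderate diet. Atp5c1, the gamma subunit that turns within ATP synthase, had 260.2, 297, 239 and 257 CPM in moderate diet mutants, against 209.7, 219.6, 197 and 226 CPM in moderate diet WT. The groups did not overlap, but the log2 fold change of 0.31 ± 0.10 did not pass (edgeR adjusted p = 0.0647). Cox7a1, the heart and muscle isoform of subunit 7A, averaged 0.909 ± 0.129 CPM in moderate diet mutants and 0.562 ± 0.144 CPM in moderate diet WT (SD, n = 4 each), at 0.70 ± 0.23 (edgeR adjusted p = 0.0753). Sdhc was at 0.13, Sdhb, the iron-sulfur subunit of complex II, at 0.05 (-0.01 without the 3 libraries of contradicted sex label), Uqcrc2 at 0.13, the Rieske protein Uqcrfs1 at 0.11, Cox6b2 at 0.26 and Atp5sl at -0.15, and none passed. Ndufa11, Ndufa1, Uqcr11 and Atp5k, which fell on the enriched diet, stood at -0.10 ± 0.14, 0.03 ± 0.14, 0.05 ± 0.13 and -0.08 ± 0.12 in moderate diet mutants over moderate diet WT.

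The difference between the mutant effects on the 2 diets was tested directly, and 0 of 75 subunit genes passed, with 0.0% of all genes called. The smallest p-values were those of Ndufa1, whose mutant effect was lower on the enriched diet by a log2 difference of -0.62 ± 0.20 (edgeR quasi-likelihood F test, Benjamini-Hochberg adjusted p = 0.501), Uqcr11 at -0.56 ± 0.19 and Atp5j2 at -0.44 ± 0.16. The median difference was -0.30, 71 of 75 were below 0, against 50.4% of all genes, and 25 had an unadjusted p under 0.05, against 9.65% of all genes. Among transcripts of up to 750 bases the median difference was -0.36 in subunit genes and -0.24 in other protein-coding genes, and with the length trend removed the median of the 75 was -0.13. DESeq2 and limma-voom also made 0 calls. A difference between the diets in these genes was therefore not shown by the adjusted test.

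Diet within a genotype gave 0 calls among the subunit genes. In mutants, enriched over moderate diet, 0.0% of all genes passed, the median over the subunit genes was -0.15 with 64 of 75 below 0 (51.0% of all genes), and 7 had an unadjusted p under 0.05, against 10.8% of all genes. Without the 3 libraries of contradicted sex label, that median was -0.02. Cox6b2 stood at 0.46 ± 0.16 (edgeR quasi-likelihood F test, Benjamini-Hochberg adjusted p = 0.442), and Ndufa11 and Ndufa1 at -0.37 each. In WT, enriched over moderate diet, 0.0% of all genes passed, the median was 0.15 with 72 of 75 above 0 (49.3% of all genes lay below 0), and 1 subunit gene had an unadjusted p under 0.05, against 2.44% of all genes. That median was 0.04 with the length trend removed. The gene with that p was Uqcr11 at 0.31 ± 0.15 (edgeR adjusted p = 0.967), followed by Cox5b at 0.28 and Ndufb3 at 0.21. DESeq2 and limma-voom made 0 calls among the subunit genes in either comparison. DESeq2 called 0.0207% of all genes in mutants and 0.00689% in WT. The diet comparisons share their libraries with the mutant comparisons, so their signs are not separate evidence.

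Subunits and carriers outside the symbols included the largest changes. Of 13 tested, 3 rose and 2 fell in enriched diet mutants, where 14.4% of all genes rose and 16.8% fell. In moderate diet mutants 2 rose and 0 fell, where 4.79% of all genes rose and 2.83% fell. Ndufa4l2, a relative of Ndufa4 known to be induced in low oxygen, had 27.3, 42.9, 32.3 and 29.2 CPM in enriched diet mutants, against 2.73, 2.25, 1.93 and 5.00 CPM in enriched diet WT (log2 fold change 3.56 ± 0.30, edgeR quasi-likelihood F test, Benjamini-Hochberg adjusted p = 4e-06). Cox4i2, the isoform of subunit 4 induced in low oxygen, had 15.4, 16.4, 10.3 and 11.05 CPM in enriched diet mutants, against 3.74, 2.69, 2.19 and 3.23 CPM in enriched diet WT (2.21 ± 0.25, edgeR adjusted p = 5.74e-05). Both genes were separated without overlap. On the moderate diet they stood at 3.83 ± 0.31 and 2.54 ± 0.26 in mutants over WT, and moderate diet mutant replicate 3 was the lowest mutant in each, at 11.3 and 5.21 CPM. Their usual counterparts did not pass, with Ndufa4 at -0.29 ± 0.13 (edgeR adjusted p = 0.0977) and Cox4i1 at -0.12 ± 0.12 (edgeR adjusted p = 0.467) in enriched diet mutants over enriched diet WT. Cyc1, cytochrome c1 of complex III, fell by 0.32 ± 0.10 on the enriched diet (edgeR adjusted p = 0.026).

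All 8 mitochondrial regulators known to be induced in low oxygen rose in mutants on both diets, and in each the mutant libraries lay above all WT libraries of the same diet. They include Ndufa4l2 and Cox4i2, already counted above, and also Mxi1, a Myc antagonist, at 1.18 ± 0.15 on the enriched diet and 0.82 ± 0.15 on the moderate diet (edgeR quasi-likelihood F test, Benjamini-Hochberg adjusted p = 0.000155 and 0.00365). These 8 were chosen with earlier results of these data known, so their count is not separate support. On the enriched diet 14.4% of all genes rose and 16.8% fell, and on the moderate diet 4.79% rose and 2.83% fell. All mutants lay above all WT libraries in 11.2% of all genes on the enriched diet and 8.5% on the moderate diet. Of 13 regulators of respiratory genes, 1 rose and 3 fell in enriched diet mutants and none passed in moderate diet mutants. The coactivator Ppargc1b rose by 1.47 ± 0.29, the mitochondrial transcription factor Tfb2m fell by 0.52 ± 0.13, and Nrf1, whose motif was counted in the promoters, fell by 0.23 ± 0.06 on the enriched diet.

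Assembly factors were also called in the enriched diet comparison, where 16.8% of all genes fell and 14.4% rose. Of those for complex I, 3 of 14 fell in enriched diet mutants, with Ndufaf2 at -0.58 ± 0.11, Ndufaf4 at -0.52 and Ecsit at -0.35. Of those for complex II, 2 of 4 fell, Sdhaf2 and Sdhaf1, at -0.37 and -0.42. For complex III, Uqcc1 fell by 0.35 and Lyrm7 rose by 0.81 among 6. For complex IV, 5 of 19 fell and 1 rose, with the copper-handling Cox19 at -0.59 and Coa7 at -0.35 and the heme-synthesis enzyme Cox10 at -0.33, and for ATP synthase 1 of 3, Atpaf2, fell by 0.28. On the moderate diet 0 of these 46 factors passed, where 4.79% of all genes rose and 2.83% fell. In pyruvate dehydrogenase and the citric acid cycle, 3 of 18 rose and 3 fell on the enriched diet (16.7% each way, near the shares of all genes), and 2 rose and 1 fell on the moderate diet. There Ogdh, of the oxoglutarate dehydrogenase, stood at -0.46 ± 0.08 and Pdha1, of pyruvate dehydrogenase, at 0.46 ± 0.10 in enriched diet mutants over enriched diet WT.

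Markers of other cell types were counted as well. On the enriched diet 31.2% of all genes passed, against 25% of erythroid, 61.5% of endothelial, 11.1% of cardiac and 29.4% of head markers. On the moderate diet 7.62% of all genes passed, against 16.7%, 15.4%, 0% and 17.6% of these lists in that order. Erythroid markers, of which 12 were tested, had 3 falls in enriched diet mutants and 2 in moderate diet mutants. Their summed level was 736 to 3619 CPM in enriched diet mutants and 1549.6 to 3880 CPM in enriched diet WT, and 1267 to 3438 CPM in moderate diet mutants and 2507 to 6615 CPM in moderate diet WT. Endothelial markers had 2 rises and 6 falls of 13 in enriched diet mutants and 2 rises in moderate diet mutants, with sums of 431 to 471 CPM in enriched diet mutants and 443 to 507 CPM in enriched diet WT. Cardiac and muscle markers, which bear on Cox6a2, Cox7a1 and Cox8b, summed to 5.09 to 9.22 CPM in enriched diet mutants and 7.74 to 11.01 CPM in enriched diet WT. Of 15 listed, 9 were tested, with 1 rise and log2 fold changes from -1.30 to 1.20 on the enriched diet. Ryr2, Myh7 and Myl7 had the smallest p there. Nkx2-5 and Nppa ran from 0 to 0.241 and from 0 to 0.237 CPM over the 16 libraries. Of 10 yolk sac and visceral endoderm markers 0 passed on either diet. Of 9 trunk and tailbud markers listed, 3 were tested (Tbx6, Wnt3a and T), and 2 of these rose on the enriched diet. The trunk list summed to 19.6 to 31.4 CPM in enriched diet mutants and 15.3 to 22.1 CPM in enriched diet WT. Cdx2 and Hoxb9 reached at most 0.143 and 0.0530 CPM. On the enriched diet 2 of 3 decidua and trophoblast markers rose, and Prl8a2, a hormone gene of the decidua, reached 189 CPM in enriched diet mutant replicate 3. Of 17 head markers 4 rose and 1 fell in enriched diet mutants and 2 rose and 1 fell in moderate diet mutants. The part of these cell types in the subunit results was not tested, and in bulk tissue fewer cells of a type cannot be told apart from less RNA per cell.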

How the data were processed

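The deposited values are raw counts per gene symbol in 16 RNA sequencing libraries. The submitters' processing notes name FastQC 0.11.5, TopHat2 2.1.1 on mm10, SAMtools 1.8, HTSeq 0.9.1 and DESeq2 1.22.2. Counting mode, strand option and annotation are not given in the sources used here. No strand is kept by the kit, so reads of overlapping genes cannot be told apart. The 5 summary lines of each table were left out.

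The 14514 genes that reached 10 counts in 4 or more libraries were scaled by trimmed means of M values and tested with edgeR 4.0.16 (limma 3.58.1, R 4.3.3) in 1 quasi-likelihood model over the 16 libraries, with a coefficient per group and the labelled sex. P-values were adjusted over all genes tested by the Benjamini-Hochberg method. The standard error is the log2 fold change divided by the square root of F. The model was tested on simulated data. The simulated libraries held no length trend, so that run does not bear on the length trend in these libraries. DESeq2 1.42.0 was an alternative. Totals of 19249433 to 44267434 counts limit precision for genes of few counts. Positions and lengths came from GENCODE vM21 (GRCm38), which matched all 80 symbols, 1 through a RefSeq synonym.

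Genes named are, per mutant comparison and complex, up to 5 past the threshold by smallest p (or 2 where none passed). Also named are 3 per diet comparison, the untested genes and the extremes of level. From the other lists of respiratory and citric acid cycle genes, up to 3 of the smallest p on the enriched diet are named. Among cell type lists, such genes are named in full only for the trunk and the cardiac and muscle markers. Other names were chosen after their values were seen. Members and lists were chosen with earlier results of these data known.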

Additional observations from a re-analysis of the deposited data

Results flagged for a closer look

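Of 260 groups of 4 libraries, 14 held a library far from the other 3. Chance flags about 1 in 20 such groups, and 1 of the 14 concerns a subunit gene chosen by symbol. That gene is Ndufa12, at 7.91 CPM in moderate diet WT replicate 4 against 3.99 to 4.55 CPM in the other moderate diet WT.

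Moderate diet mutant replicate 3 stood apart in 5 genes. Cox4i2 was at 5.21 CPM there against 11.58 to 12.01 CPM in the other moderate diet mutants, Mxi1 at 35.2 CPM, Lyrm7 at 1.49 CPM, Coa7 at 41.8 CPM and Ogdh at 243 CPM. Moderate diet WT replicate 2 stood apart in Ift88, at 9.30 CPM, in Prl8a2, at 2.37 CPM, and in the sum of erythroid markers, at 6615 CPM against 2507 to 2969 CPM in the other moderate diet WT. Enriched diet mutant replicate 4 stood apart in the sum of yolk sac and visceral endoderm markers, at 140.6 CPM.

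Prl8a2 reached 189 CPM in enriched diet mutant replicate 3 and 0.24 CPM in moderate diet mutant replicate 4, each the highest of its group. Its mean in mutants minus that in WT was 48.1 CPM on the enriched diet and -0.58 CPM on the moderate diet, with every mutant above the WT mean on the enriched diet and below it on the moderate diet. In edgeR the log2 difference of the mutant effects was 10.1 ± 3.39 (SE) and did not pass (adjusted p = 0.501). Sox2 was at 299.8 CPM in moderate diet mutant replicate 2, and Ecsit at 29.5 CPM in enriched diet mutant replicate 1.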

How the results depend on the processing

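The count of 19 subunit genes lower in enriched diet mutants was 9 with only the libraries compared, where 11.4% of all genes were lower, and 12 (14.2% of all genes) without 3 libraries that stand apart (moderate diet mutant replicate 3, moderate diet WT replicate 2, enriched diet mutant replicate 3; chosen after the data were seen). With every library, 16.8% of all genes were lower. Of the settings on sex, 13 were lower with sex read from counts (14.7% of all genes) and 14 with no sex covariate (14.9%). Without the libraries of contradicted sex label, 14 were lower (13.7% of all genes). The count of subunit genes lower ranged from 6 to 26 when a single library was left out. The 2 higher became 6 with the length trend removed per library (16.4% of all genes, 14.4% before), also chosen after the data were seen. The 1 higher in moderate diet mutants became 2 with DESeq2, 2 with the length trend removed, 3 at an adjusted p of 0.1 and 0 without the libraries of contradicted sex label, and ranged from 1 to 3 when a single library was left out (3 without moderate diet mutant replicate 3, 2 without enriched diet mutant replicate 4). The labels do not say that replicate numbers pair libraries, and 5 of 16 libraries correlated best with one of their own number (r of same-numbered pairs -0.29 to 0.51). With the number as a replicate block, 21 subunit genes were lower and 2 higher on the enriched diet and 1 was higher on the moderate diet. The diet comparisons and the difference of mutant effects gave 0 calls among the subunit genes in every alternative run. No call changed direction in the alternatives computed for 36 named results. Sdhb on the moderate diet, which was not called, ranged from -0.01 to 0.09. Medians over the subunit genes ranged from -0.25 to -0.08 for the enriched diet, -0.02 to 0.16 for the moderate diet, -0.21 to -0.02 for diet in mutants, 0.04 to 0.28 for diet in WT and -0.39 to -0.13 for the difference. Other named values were not compared across the alternatives. Among the calls of the enriched diet, Cox5a held in 6 of 28 other fits, Cox6b1 in 8, Uqcrb and Ndufs6 in 9 each and Atp5j in 10. The causes of these shifts were not tested.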
